A study of Mus musculus with 25 samples.

Results

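The Ikaros family of zinc finger transcription factors comprises Ikzf1 (Ikaros), Ikzf2 (Helios), Ikzf3 (Aiolos), Ikzf4 (Eos) and Ikzf5 (Pegasus). All probes that the array annotation assigns to these 5 genes, by current or older symbol, were taken, which gave 11 of the 46237 probes on the array. Ikzf1 had 5 probes, Ikzf2 had 1, Ikzf3 had 3 and Ikzf5 had 2. The probes named 21946 genes in all. No probe named Ikzf4, which is not analysed here. Of the 11 probes, 10 passed the filter on dim probes (detection p-value below 0.05 on at least 3 of 25 arrays). The family was singled out because Ikzf3 stood far higher in old cells with competition than in young cells, so the members were chosen by their signal on the arrays of these 2 groups, and the members' values in that comparison are a description without a test.

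Members of this family bind DNA through amino-terminal zinc fingers and pair with each other through carboxy-terminal ones. Ikaros and Aiolos recruit chromatin-remodelling and histone deacetylase complexes, above all NuRD, and can also hold genes active. Ikaros is needed for normal lymphocyte development and in thymocytes restrains Notch target genes and passage through the pre-T-cell-receptor checkpoint. Aiolos is best known from B cells, where it acts downstream of pre-B-cell receptor signalling, and is also made in developing and helper T cells. Helios and Eos are best known from regulatory T cells.

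The arrays measured mouse thymocytes negative for CD4, CD8 and CD3 and positive for CD25, a compartment that holds the successive stages TN2 (CD44 present) and TN3 (CD44 lost, T-cell-receptor beta locus rearranged). Young cells (n = 6) were host TN2/3 cells of C57BL/6 background with the CD45.2 marker. Old cells with competition (n = 6) were donor-derived TN2/3 cells of B6/Ly5.1 background with the CD45.1 marker, from wild type hosts termed competitive. Old cells without competition (n = 9) were of F1(WB x B6/Ly5.1) background, from non-competitive hosts that were Rag2-/-, γc-/- and KitW/Wv, that is, without Rag2 and the shared gamma chain of cytokine receptors and with mutated Kit. For 1 of the 9 the cell-type label was missing. TN2 cells (CD25+CD44+, n = 2) and TN3 cells (CD25+CD44-, n = 2) came from wild type B6/Ly5.1 controls. The labels give no age, no time after transfer and no statement on separate or pooled mice, so each p-value reflects only how far these samples scatter. The young cells and the old cells with competition also differed in background and CD45 allele.

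Chips 2 and 4 carried the young cells and the old cells with competition, chips 3 and 5 carried TN2 and TN3, and chips 1 and 5 carried the old cells without competition. Chip and group therefore cannot be told apart in a comparison of young cells with TN2, TN3 or old cells without competition, or of old cells with competition with TN3 or old cells without competition. Between 41.1% and 50.1% of probes were detected per array. Array 6 of the old cells with competition stood apart, with 1617 genes more than 1 log2 unit from its group mean, against at most 532 on any array of old cells without competition and 234 on any young array. On that array Cd4, which marks later thymocytes, stood at 8.86, against a group median of 4.89, and the summed signal of the 5 measured of 8 markers of double-positive or later T cells reached 1948, against a group median of 590. Cd8b1, of the same list, went the other way, at 6.54 on that array and between 7.57 and 7.97 on the other 5. Among T-lineage markers, Cd3e, a subunit of the T-cell-receptor complex, averaged 9.42 in TN2 and between 9.85 and 10.1 in the others. Others varied more. Rag1 averaged 6.80 in TN2, 9.03 in old cells without competition, 9.12 in TN3 and 9.25 in young cells. In old cells with competition Rag1 averaged 9.86, with 11.13 on array 6. Ptcra, the pre-T-cell-receptor alpha chain, averaged 4.71 in TN2, 5.71 in young cells and 6.70 in TN3. It averaged 6.03 in old cells with competition and 6.78 in those without. Il2ra, which encodes the CD25 used for sorting, was detected on 0 of 2 TN3 arrays, 2 of 2 TN2 arrays, 6 of 6 young arrays, 5 of 6 arrays of old cells with competition and 5 of 9 without. In bulk samples, fewer cells of a type and less RNA per cell cannot be told apart.

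Promoter windows from RefSeq (GRCm38.p6, 250 bases before to 50 after each start) were given for 2 of the 5 genes, Ikzf1 and Ikzf5, which are the members with a call in the tests below. CG dinucleotides are in capitals.
Ikzf1 promoter, chr11:11685675-11685974, plus strand: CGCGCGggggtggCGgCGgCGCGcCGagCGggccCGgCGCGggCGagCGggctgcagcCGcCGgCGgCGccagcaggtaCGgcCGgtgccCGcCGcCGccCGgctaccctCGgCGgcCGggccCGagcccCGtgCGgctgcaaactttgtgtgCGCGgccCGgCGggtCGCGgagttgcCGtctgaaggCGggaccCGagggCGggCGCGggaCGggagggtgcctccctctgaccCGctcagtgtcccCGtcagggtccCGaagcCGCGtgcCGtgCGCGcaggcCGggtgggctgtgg
Ikzf1 promoter, chr11:11689927-11690226, plus strand: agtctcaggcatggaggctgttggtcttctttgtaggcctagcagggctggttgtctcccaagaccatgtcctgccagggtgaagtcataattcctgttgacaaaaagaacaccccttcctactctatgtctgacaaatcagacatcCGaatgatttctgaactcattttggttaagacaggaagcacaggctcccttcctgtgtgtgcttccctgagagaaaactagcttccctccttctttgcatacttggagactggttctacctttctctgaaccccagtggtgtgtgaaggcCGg
Ikzf5 promoter, chr7:131410429-131410728, minus strand: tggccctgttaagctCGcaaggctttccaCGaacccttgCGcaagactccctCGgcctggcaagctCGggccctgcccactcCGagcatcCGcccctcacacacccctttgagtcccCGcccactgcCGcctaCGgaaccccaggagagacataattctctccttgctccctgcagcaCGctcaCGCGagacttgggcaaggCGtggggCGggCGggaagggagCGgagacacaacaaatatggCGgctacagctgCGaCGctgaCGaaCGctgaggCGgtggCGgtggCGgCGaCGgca
The first Ikzf1 window held 52 CG dinucleotides at 81.3% GC and the second held 2, while the Ikzf5 window held 27 at 65.7% GC. Over all 32851 such windows the median was 7 CG dinucleotides and 52.7% GC. The Ikaros core motif TGGGAA was looked for on both strands and was in none of the 3 windows, and 25.6% of all windows hold it. The probes were not assigned to either Ikzf1 start.

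Ikzf3 signal differed most between the groups of all members. On a normalised log2 scale, the Ikzf3 transcript probe (ILMN_1216717, chromosome 11) gave 4.12 and 4.15 in TN2, where it was not detected on either array, and 6.00 and 6.80 in TN3. In young cells it gave 4.35 at the lowest, 4.78 at the median and 6.04 at the highest. In old cells with competition it gave 7.23, 7.95 and 9.74, and in old cells without competition 6.65, 7.17 and 7.73. All 6 arrays of old cells with competition and all 9 without competition were above every young array.

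The group means ran from 4.13 in TN2 through 5.04 ± 0.74 (SD, n = 6) in young cells, 6.40 in TN3 and 7.19 ± 0.38 (n = 9) in old cells without competition to 8.07 ± 0.90 (n = 6) in old cells with competition. Neighbours in this order overlapped, except TN2 and young cells. Old cells with competition exceeded young cells by 3.03 ± 0.35 (log2, SE), an 8.15-fold difference, with 3.38 on chip 2 and 2.68 on chip 4. The difference was 1.67 without background correction and 1.70 on the deposited log2 values. Array 6 of the old cells with competition was the highest. Without it the group mean was 7.73 ± 0.43 (n = 5) and the difference from young cells was 2.69. Old cells without competition exceeded young cells by 2.14 ± 0.32 (1.00 without background correction, 1.03 on the deposited values), and old cells with competition exceeded TN3 by 1.67 ± 0.49 (1.12 without background correction). These comparisons share arrays with the one by which Ikzf3 was chosen, and carry no test.

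**Figure D1:**
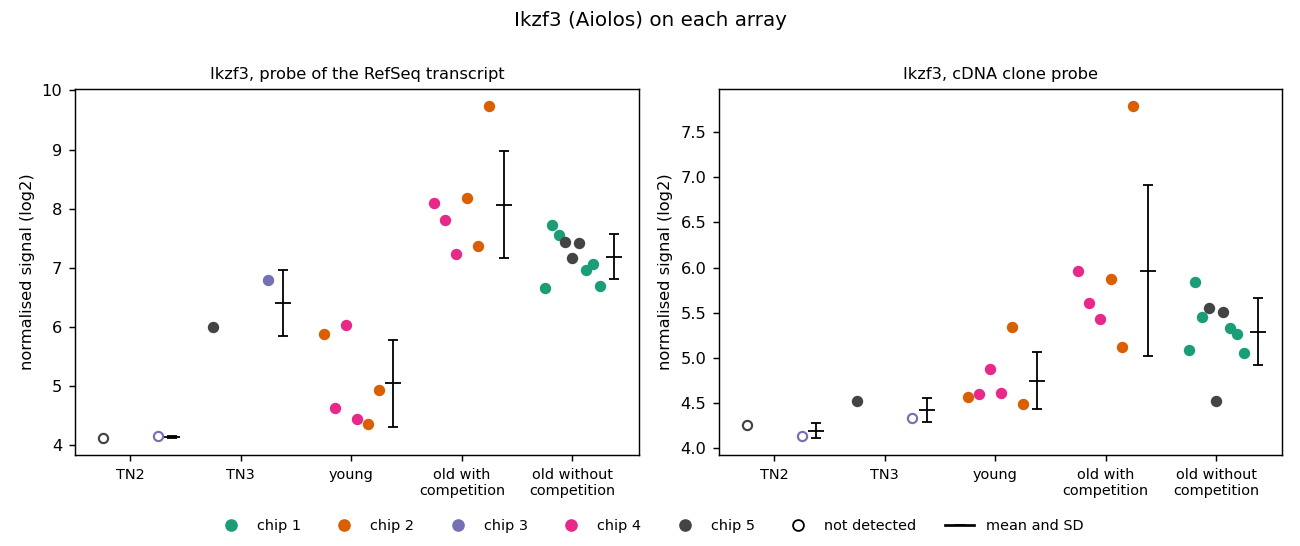
Normalised log2 signal of 2 Ikzf3 probes on each array by group, coloured by chip, with mean and SD beside the points and open symbols where the probe was not detected. On the transcript probe all 15 arrays of old cells lie above all 6 young arrays, and the old-with-competition array at 9.74 is the highest.

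Ikzf3 also had 2 cDNA clone probes, under the older symbol Znfn1a3. The clone probe ILMN_1225747 gave 4.50 at the lowest, 4.61 at the median and 5.34 at the highest in young cells, 5.12, 5.74 and 7.79 in the old cells with competition, and 4.53, 5.34 and 5.84 in old cells without competition. Old and young arrays overlapped on this probe, and its mean in old cells with competition exceeded that of young cells by 1.22 ± 0.30. The other clone probe, ILMN_1249254, was detected on only 1 of 25 arrays, array 6 of the old cells with competition, at 4.74.

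The stage controls did not enter the choice of the family, so Ikzf3 was tested between them. On the transcript probe TN3 exceeded TN2 by 2.27 ± 0.60, with 2.65 on chip 3 and 1.88 on chip 5. TN2 was not detected. The TN3 mean was 4.44-fold above the detection limit in TN2 (4.25), a point estimate that takes no account of scatter or processing. The difference between TN3 and TN2 missed the threshold of an adjusted p of 0.05 (limma, adjusted p = 0.0676). Without background correction the difference was 0.85 (limma, adjusted p = 0.460). Leaving out array 6 of the old cells with competition, which enters the model only through the shared spread, left the difference at 2.27 and lowered the adjusted p to 0.0115. Of the 4 members tested between TN3 and TN2, 0 passed (limma, 1 at an unadjusted p below 0.05), against a background of 1.17% of all 15533 genes.

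In old cells without competition 7 of 9 arrays were above both TN3 arrays on the Ikzf3 transcript probe. The mean difference was 0.79 ± 0.47 (limma, 95% interval -0.19 to 1.76, adjusted p = 0.474), which did not pass the test. It was 0.46 without background correction. On chip 5, which held 1 TN3 array, the difference was 1.34, with no spread of its own on the TN3 side. Between these groups 0 of 4 members passed (limma, 1 at an unadjusted p below 0.05), against 2.36% of all genes.

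Of the TN2-stage markers, mean Kit fell across the groups in the order in which Ikzf3 rose on its transcript probe. Cd44 fell along that order only as far as TN3. Kit, the stem cell factor receptor that falls as cells leave TN2, averaged 7.61 in TN2, 6.90 in young cells, 5.69 in TN3, 4.78 in old cells without competition and 4.62 in old cells with competition. Kit was near the floor in the old cells, detected on 7 of 9 arrays without competition and 4 of 6 with it. Its values in these groups overlapped, so their order is not resolved. Cd44 averaged 6.34 in TN2, 5.68 in young cells, and between 4.46 and 4.55 in the other groups. Both TN2 markers fell from young to old cells without competition. The part of stage in the Ikzf3 values was not tested. Of a list of 10 B-lineage markers, 5 were measured, and the summed signal of those 5 ran from 226 to 332 in young cells, 115 to 287 in old cells with competition and 187 to 317 in old cells without competition. In the NK and innate lymphoid, erythroid and mast, and myeloid lists, the median summed signal was highest in TN2. Young cells came next, above TN3 and both old groups. The 4 measured of 7 NK and innate lymphoid markers summed to 569 to 697 in TN2, a median of 385 in young cells, 160 to 191 in TN3, 91.8 to 272 in old cells without competition and 80.3 to 189 with it. The 4 measured of 5 erythroid and mast markers summed to 1737 to 2035 in TN2, 516 to 1288 in young cells, 114 to 131 in TN3, 77.0 to 275 in old cells without competition and 74.4 to 173 with it. Of 8 myeloid markers, 5 were measured and summed to 274 to 306 in TN2 and 150 to 297 in young cells. They summed to 114 to 123 in TN3, 96.6 to 125 in old cells without competition and 91.5 to 104 with it. From young to old cells without competition, 2 of 4 NK, 2 of 4 erythroid and mast and 2 of 5 myeloid genes fell. Of all genes, 8.93% were called in that comparison. The part of these cell types in the Ikzf3 values was not tested.

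Ikzf1 was detected on every array by its 4 transcript probes, and its signal spanned a narrow range. The probe that stands for the gene (ILMN_1255419, chromosome 11) gave 9.13 and 8.89 in TN2, and 9.02 and 9.07 in TN3. It gave 8.21, 8.58 and 8.84 (lowest, median, highest) in young cells, 8.80, 8.97 and 9.62 in the old cells with competition, and 8.34, 8.98 and 9.34 in old cells without competition. Group means ran from 8.54 ± 0.23 (n = 6) in young cells to 9.07 ± 0.29 (n = 6) in old cells with competition, with 8.93 ± 0.27 (n = 9) in old cells without competition, 9.01 in TN2 and 9.04 in TN3 between them. Each group overlapped its neighbour in this order. All 6 young arrays, however, lay below every TN2 and TN3 array. Young cells differed from TN2 by -0.47 ± 0.21, which did not pass (limma, adjusted p = 0.344).

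**Figure D2:**
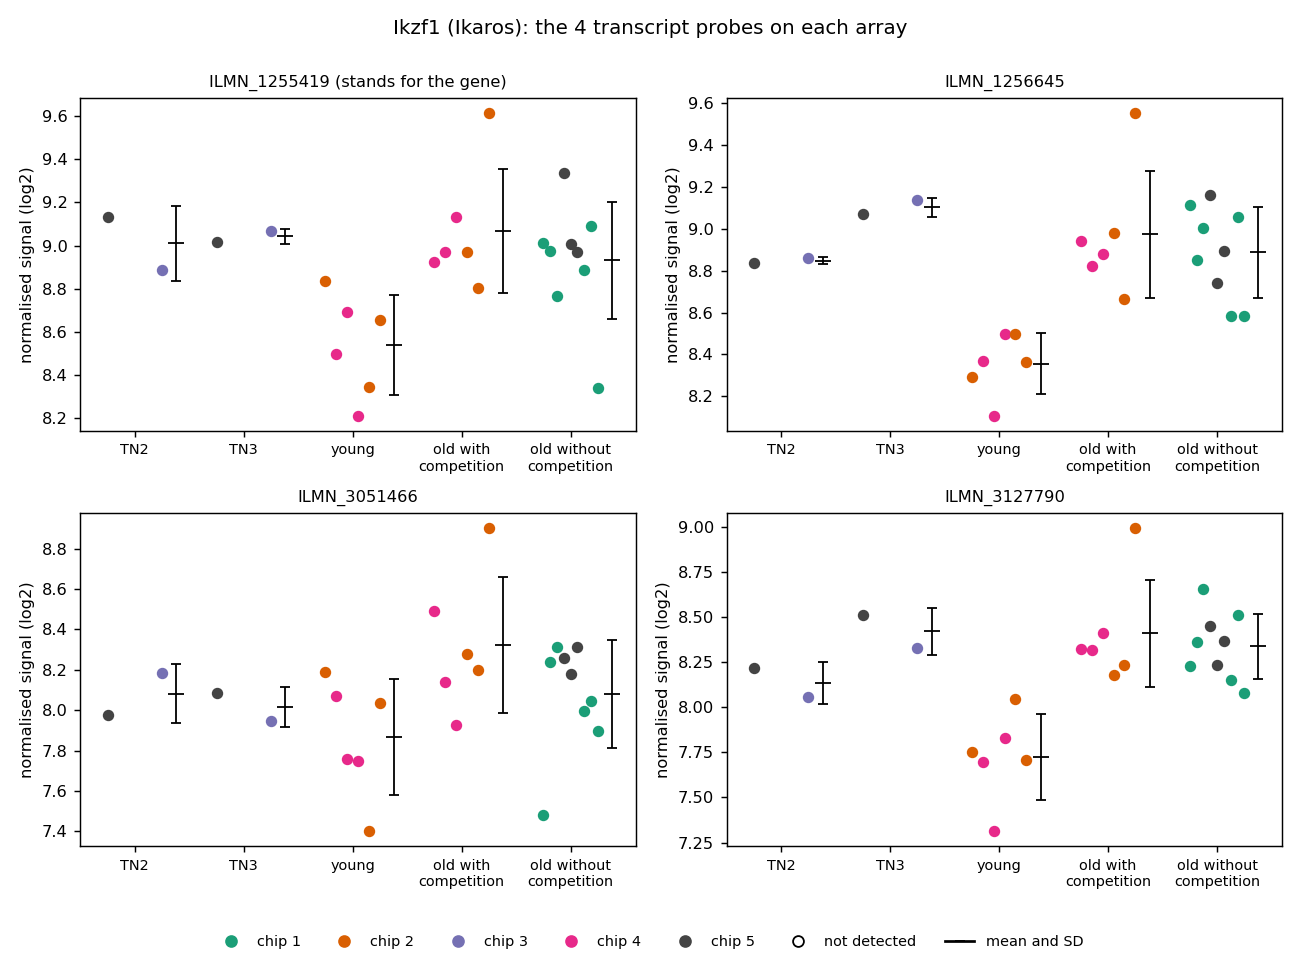
Normalised log2 signal of the 4 Ikzf1 transcript probes on each array by group, coloured by chip, with mean and SD beside the points. On the probes ILMN_1256645 and ILMN_3127790 all 9 arrays of old cells without competition lie above all 6 young arrays.

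Ikzf1 probes gave unequal answers for old cells without competition against young cells. Taken as a gene, Ikzf1 was 0.39 ± 0.13 higher and did not pass (limma, adjusted p = 0.0708). Of the 3 members tested there, 0 passed (1 at an unadjusted p below 0.05), against 8.93% of all genes. Tested probe by probe, ILMN_3127790 rose by 0.61 ± 0.12 (adjusted p = 0.00226) and ILMN_1256645 by 0.53 ± 0.12 (adjusted p = 0.00561), with no overlap between groups, against 6.96% of all 30174 probes called. The other transcript probe, ILMN_3051466, differed by 0.21 ± 0.15 (adjusted p = 0.477). The calls on both probes were lost when arrays were scaled to a common median in place of quantile normalisation, with differences of 0.06 and 0.01, while Ikzf1 as a gene turned to -0.14. Under that scaling the median difference of all genes was -0.17, against 0.02 in the main normalisation.

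The same 2 probes fell in young cells compared with TN3, by 0.75 ± 0.18 (ILMN_1256645, limma, adjusted p = 0.0208) and 0.70 ± 0.19 (ILMN_3127790, adjusted p = 0.0387), against 3.22% of all probes called. Ikzf1 as a gene differed there by -0.50 ± 0.21 (adjusted p = 0.211). Scaling to a common median turned both probe differences, to 0.12 and 0.19, with the median difference of all genes at 0.25, against 0.00. Both calls were also lost when either TN3 array was left out (adjusted p from 0.0847 to 0.243), and that of ILMN_3127790 without young array 2, 3 or 6 (0.0608, 0.0674 and 0.0583) or in a fit of only the 2 groups (0.0780). Old cells with competition were higher than young cells on all 4 transcript probes, by 0.46 to 0.68, as a description. Ikzf1 did not pass between TN3 and TN2 (0.03 ± 0.25, adjusted p = 0.988, 95% interval -0.49 to 0.56) or between old cells without competition and TN3 (-0.11 ± 0.20, adjusted p = 0.866). The cDNA clone probe under the older symbol Znfn1a1, ILMN_2569464, lay near the floor and was detected on 12 of 25 arrays.

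Ikzf2, the member best known from regulatory T cells, did not pass in any of the 7 comparisons tested. Its single probe (ILMN_1217123, chromosome 1) gave 6.01 and 5.85 in TN2, and 6.10 and 6.36 in TN3. It gave 4.22, 5.96 and 6.33 (lowest, median, highest) in young cells, 5.40, 6.03 and 6.21 in the old cells with competition, and 4.15, 5.73 and 6.20 in old cells without competition. Neighbours in the order of the group means overlapped, while both TN3 arrays lay above both TN2 arrays. The probe was not detected on 1 young array and 1 array of old cells without competition. The widest tested difference was -0.69 ± 0.40 between old cells without competition and TN3 (limma, adjusted p = 0.453, 95% interval -1.52 to 0.14). Foxp3, the factor that marks regulatory T cells, averaged between 6.71 and 7.38 in all groups. Ctla4, of the same list, averaged 5.13 in TN2, 5.63 in TN3 and 6.85 in young cells. It averaged 6.04 in old cells with competition and 6.39 in those without. The 4 markers of that list summed to a median of 214 in TN2, 233 in TN3 and 340 in young cells. The sum was 289 in old cells with competition and 271 in those without. The part of regulatory T cells in the Ikzf2 values was not tested.

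Ikzf5, the most divergent family member, was the only member called as a gene between groups, in comparisons with TN3. Its mean signal was lower in TN2 and TN3 than in the other groups. The probe that stands for it (ILMN_2963412, chromosome 7) gave 5.84 and 4.90 in TN3, and 5.49 and 5.54 in TN2. It gave 5.81, 6.23 and 6.71 (lowest, median, highest) in young cells, 6.05, 6.27 and 6.35 in the old cells with competition, and 5.79, 6.11 and 6.42 in old cells without competition. All arrays of old cells with competition were above both TN3 arrays, and 5 of 6 young arrays were. The values of the young and both old groups overlapped. Both TN2 arrays lay below every array of these groups. The mean was 5.37 in TN3 and 5.52 in TN2. That difference of -0.15 ± 0.26 did not pass (limma, adjusted p = 0.923).

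Ikzf5 was higher in old cells with competition than in TN3 by 0.87 ± 0.21 (limma, adjusted p = 0.0224) and higher in young cells than in TN3 by 0.85 ± 0.21 (adjusted p = 0.0238). It was 1 of 3 members called in each, against 3.78% and 3.67% of all genes. Neither of these groups shared a chip with TN3, so chip and group cannot be told apart in these calls. Without TN3 array 2, the one at 4.90, the differences were 0.40 (adjusted p = 0.629) and 0.38 (adjusted p = 0.627). Both calls were also lost in fits of only the groups compared (adjusted p = 0.133 and 0.149). On the other Ikzf5 probe, ILMN_1215504, the differences were 0.64 ± 0.23 (adjusted p = 0.155) and 0.55 ± 0.23 (adjusted p = 0.236), which did not pass. Old cells without competition differed from TN3 by 0.72 ± 0.20 (adjusted p = 0.0609), and by 0.33 on chip 5, whose 1 TN3 array was the one at 5.84. Ikzf5 differed from TN2 in young cells by 0.71 ± 0.21 (adjusted p = 0.112), where 0 of 3 members passed (limma, 2 at an unadjusted p below 0.05) against 1.47% of all genes.

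**Figure D3:**
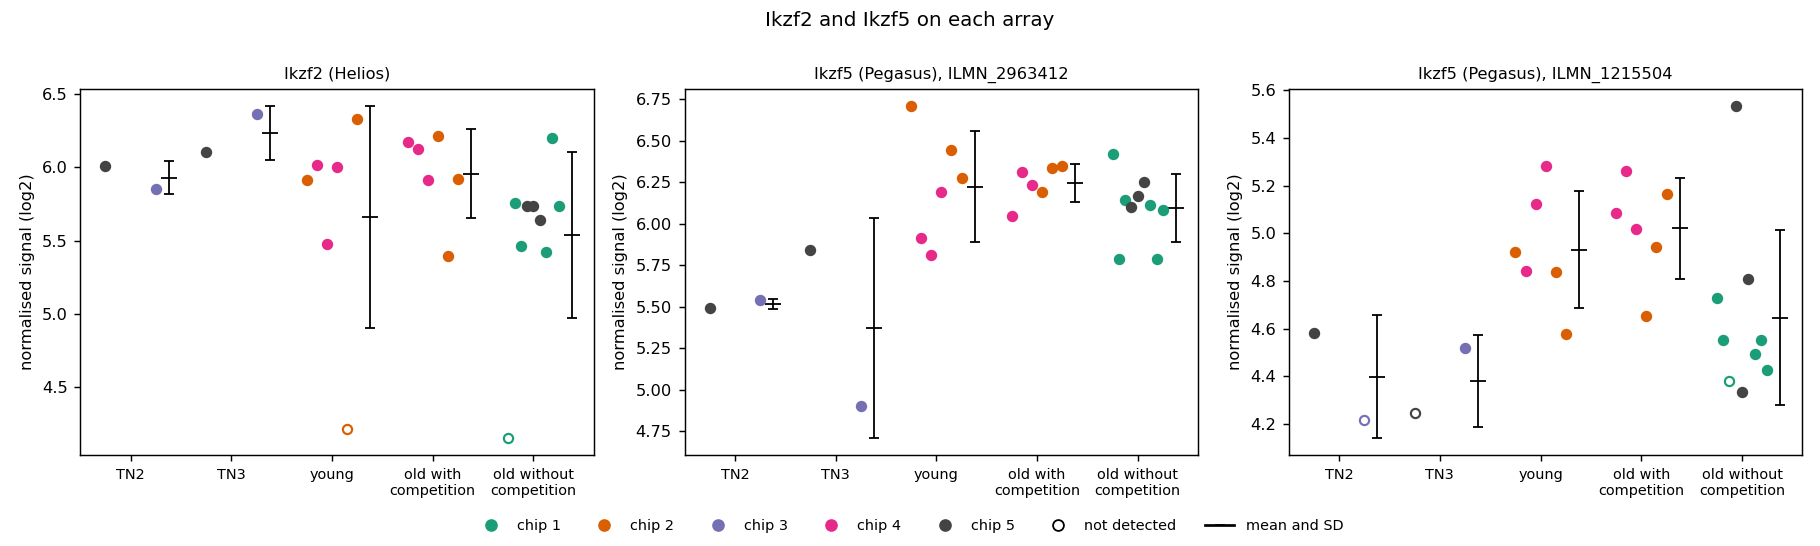
Normalised log2 signal of Ikzf2 and of 2 Ikzf5 probes on each array by group, coloured by chip, with mean and SD beside the points and open symbols where the probe was not detected. One TN3 array lies at 4.90 on the Ikzf5 probe ILMN_2963412, below the other at 5.84.

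The 2 old groups differed in competition as labelled, and also in strain background and in host genotype. Of the members tested, 0 of 3 passed (limma, 0 at an unadjusted p below 0.05), against 1.24% of all genes. Old cells without competition differed from those with competition by -0.14 ± 0.13 for Ikzf1 (adjusted p = 0.711), -0.42 ± 0.27 for Ikzf2 (adjusted p = 0.532) and -0.15 ± 0.14 for Ikzf5 (adjusted p = 0.687). Ikzf3 was lower without competition by 0.88, with groups that overlapped and no test. Competition, background, host and chip cannot be told apart here, and scaling to a common median gave -0.66, -0.88 and -0.67 for Ikzf1, Ikzf2 and Ikzf5, all called, with the median difference of all genes at -0.20, against 0.02.

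**Figure D4:**
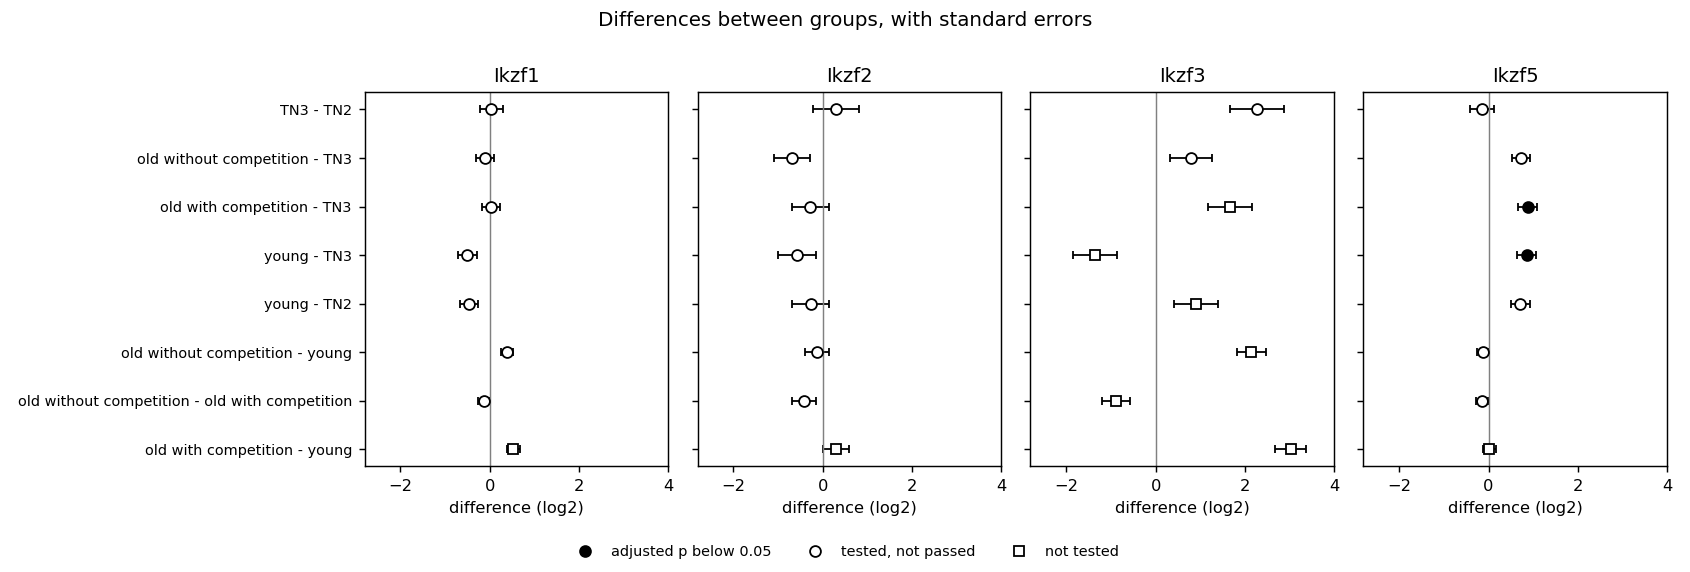
Differences between groups (log2) with standard errors for Ikzf1, Ikzf2, Ikzf3 and Ikzf5. Squares were not tested, and filled circles passed an adjusted p of 0.05: Ikzf5 against TN3 in young cells (0.85) and in the old cells with competition (0.87).

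Across the 25 arrays, Ikzf1 and Ikzf3 correlated with r = 0.60, and with r = 0.49 without array 6 of the old cells with competition (n = 24). Other pairs of members lay between -0.39 and 0.22. These values describe arrays that share groups and chips.

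The genes whose profile was most like that of Ikzf3, by Pearson correlation over the 25 arrays, were Trbv1, Cd28, Rgs10, Lef1 and Cd2, with r from 0.85 to 0.87. Trbv1 is a variable segment of the T-cell-receptor beta chain, Cd28 a costimulatory receptor, and Cd2 an adhesion receptor of T cells. Lef1, a transcription factor of the TCF family active around beta-selection, averaged 4.81 in TN2, 7.34 in young cells, 9.18 in TN3, 8.95 in old cells without competition and 9.00 in old cells with competition. With the group means removed, the correlation with Ikzf3 was 0.73 for Lef1, 0.68 for Cd2 and 0.51 for Rgs10, a regulator of G-protein signalling. Most opposite were Lgals1 (galectin-1), Kit, Ppic (cyclophilin C), Rab27a, a small GTPase of vesicle transport, and Alox5ap, which serves leukotriene synthesis, with r from -0.93 to -0.90. Alox5ap averaged 8.54 in TN2, 7.96 in young cells, 6.96 in TN3, 5.74 in old cells without competition and 4.93 in old cells with competition. Without array 6 (n = 24), r ran from 0.81 to 0.86 and from -0.92 to -0.88. The 10 genes were picked by their correlation on these arrays, so the values are a description. The correlations with group means removed include array 6.

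**Figure D5:**
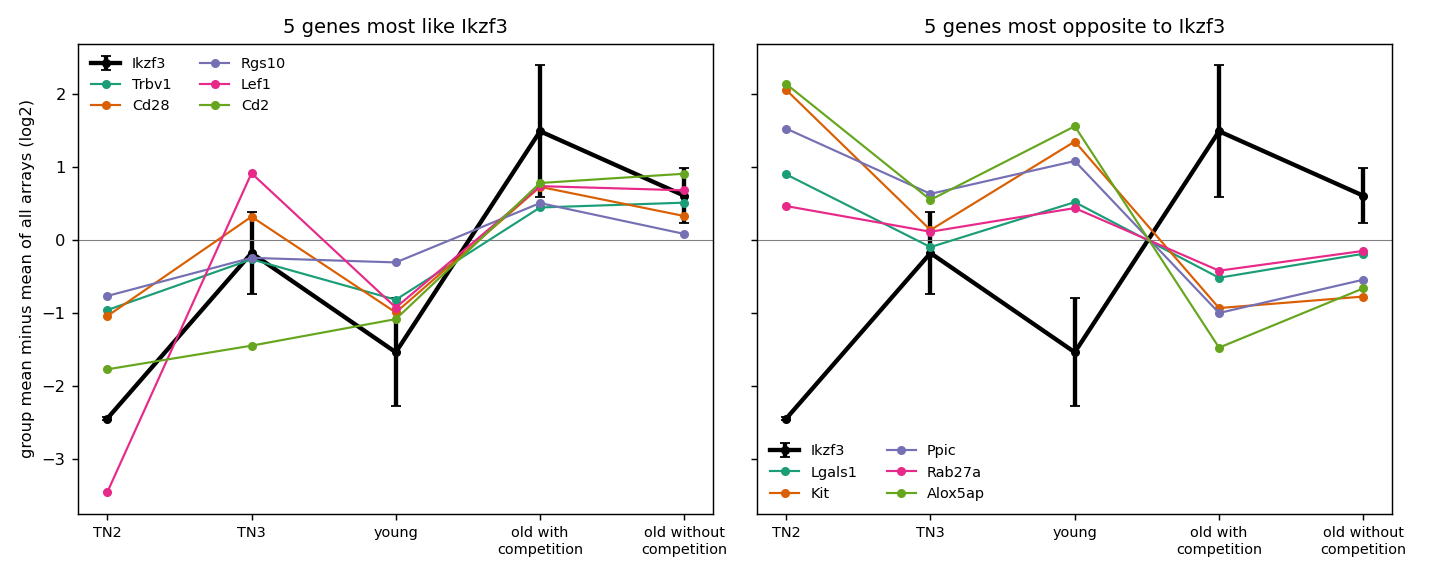
Group mean minus the mean of all arrays (log2) for Ikzf3, with SD, and for the 5 genes most like it and the 5 most opposite to it over 25 arrays. Lef1 and Ikzf3 both lie lowest in TN2, while Kit and Alox5ap lie highest there and lowest in old cells with competition.

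Partners of Ikaros proteins in corepressor complexes formed a list of 17 genes, of which 14 were measured. Between TN3 and TN2, 0 of 14 passed (limma, 0 at an unadjusted p below 0.05), against 1.17% of all genes. Hdac2, a histone deacetylase of NuRD, was higher than in TN3 in old cells with competition (0.67 ± 0.15, limma, adjusted p = 0.0161), young cells (0.57 ± 0.15, adjusted p = 0.0388) and old cells without competition (0.55 ± 0.15, adjusted p = 0.0491), the 1 of 14 called in each, against 3.78%, 3.67% and 2.36% of all genes. Rbbp4, a histone-binding NuRD subunit, was the 1 of 14 called between old cells without competition and young cells, and also between the 2 old groups. It fell by 0.50 compared with young cells (adjusted p = 0.0213) and by 0.69 compared with old cells with competition (adjusted p = 0.00872), where 8.93% and 1.24% of all genes were called. Mta3, another NuRD subunit, averaged 7.75 in old cells with competition and 9.13 in young cells (-1.38 ± 0.26), and was the 1 of 14 past the threshold there, against 2.92% of all genes, a count from the contrast of the choice that is given as a description. Chd3, a NuRD remodelling ATPase, was the 1 of 14 called between young cells and TN2 (-0.63 ± 0.14, adjusted p = 0.0197), against 1.47% of all genes. The median difference of the list lay between -0.05 and 0.07 in the 8 comparisons, where that of all genes lay between -0.01 and 0.02.

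Reported targets of Ikaros or Aiolos formed a list of 19 genes, with 15 measured. From TN2 to TN3, 2 of 15 rose, namely Ptcra, the pre-T-cell-receptor alpha chain (1.99 ± 0.43, limma, adjusted p = 0.0178), and Dtx1, a Notch target (2.16 ± 0.47, adjusted p = 0.0183), against 1.17% of all genes called. From young to old cells without competition, Ptcra rose by 1.07 ± 0.23 (adjusted p = 0.0037) and Dtx1 by 0.95 ± 0.25 (adjusted p = 0.0171). In that comparison Vpreb1, a surrogate light chain gene, and Bcl2, a survival factor, fell by 1.05 (adjusted p = 0.00814) and 1.12 (adjusted p = 0.00277), which made 4 of 15 called, against 8.93% of all genes. In old cells with competition Bcl2 averaged 7.25 against 8.82 in young cells (-1.57 ± 0.25), likewise a description and the 1 of 15 past the threshold, against 2.92% of all genes. Hes1, a Notch target, was the 1 of 15 called between old cells with competition and TN3 (-1.36 ± 0.32, adjusted p = 0.0197, against 3.78% of all genes), and Dtx1 the 1 of 15 between young cells and TN2 (1.64 ± 0.38, adjusted p = 0.0282, against 1.47%). In the other 3 comparisons (old cells without competition against TN3 or against old cells with competition, and young cells against TN3) 0 of 15 passed (limma, with 3, 3 and 6 at an unadjusted p below 0.05), against 2.36%, 1.24% and 3.67% of all genes. The list's median difference was -0.42 between old cells with competition and TN3, 0.33 between old cells without and with competition, and -0.16 between old cells without competition and TN3. It lay between -0.07 and 0.14 in the other 5 comparisons, and that of all genes between -0.01 and 0.02 in all 8.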

How the data were processed

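Per the labels' protocols, RNA was extracted with RNAzol B, and biotinylated cRNA made with an Ambion MessageAmp kit was run on Illumina arrays. The deposited intensity of each of 46237 probes was a linear mean brightness, not normalised, as its values show. A detection p-value was deposited beside each intensity, whose test is not stated in these sources. The authors also deposited log2 values, normalised to an equal median of 6.51 on every array, used here as an alternative.

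Intensities were background-corrected, quantile normalised and put on a log2 scale with neqc of limma 3.58.1 (R 4.3.3; offset 16, background estimated from the detection p-values), which draws dim probes to a floor and understates their folds. Of the probes, 30174 with a detection p-value below 0.05 on at least 3 arrays were kept. The probe with the highest mean stood for a gene, which left 15533 genes. Probe symbols were updated through RefSeq by gene identifier or accession, and probes of cDNA clones with only an older symbol were kept apart. One limma model held all 25 arrays, with group means as coefficients and the chip, read from the sample titles, as a random block (statmod 1.5.0, correlation 0.00457). Tests were two-sided, with Benjamini-Hochberg adjustment over all genes, or over all kept probes where probes were tested singly. Differences are model estimates ± SE. The model was tested on simulated data.

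The members and lists were chosen with earlier results of these data known. Named genes were the members, the 5 genes most like and the 5 most opposite to Ikzf3, up to 4 called genes per list and comparison, and defining markers. Arrays give no counting error, and their number limits the precision. Alternatives varied the background correction, normalisation, filter, probe, chip term, weights, groups and arrays in the fit.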

Additional observations from a re-analysis of the deposited data

Results flagged for a closer look

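In 7 of 30 sets of 1 probe in 1 group, the highest or lowest array lay far from the others relative to the whole range (Dixon's criterion), where chance flags about 1 in 20. Array 6 of the old cells with competition was highest on the Ikzf1 probes ILMN_1256645, at 9.55 against 8.98 for the next array, and ILMN_3127790, at 8.99 against 8.41, and on the Ikzf3 clone probe ILMN_1225747, at 7.79 against 5.97. Array 1 of the old cells without competition was lowest on the Ikzf1 probe ILMN_3051466, at 7.48 against 7.90, and on Ikzf2 (ILMN_1217123), at 4.15 against 5.42. Array 5 of the old cells with competition was lowest on Ikzf2, at 5.40 against 5.91. Array 4 of the old cells without competition was highest on the Ikzf5 probe ILMN_1215504, at 5.53 against 4.81.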

How the results depend on the processing

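Ikzf3 exceeded young cells in old cells with competition under every alternative run, but by 1.67 without background correction and 1.70 on the deposited log2 values, and by 2.69 to 3.23 when 1 array was left out. Ikzf3 in TN3 against TN2 ran from 1.87 to 2.66 with 1 array left out (adjusted p from 0.0115 to 0.325), was 0.85 without background correction and, in old cells without competition against TN3, from 0.39 to 1.18. Scaling to a common median gave 1 called member between old cells without competition and young cells (Ikzf5, -0.64), 3 between the old groups, 2 between old cells with competition and TN3 (Ikzf1 at 0.89 in addition) and 1 between young cells and TN2 (Ikzf5, 1.15). It also turned the Ikzf1 probes in young cells against TN3 to 0.12 (ILMN_1256645), 0.19 (ILMN_3127790) and 0.71 (ILMN_3051466). With the mean of a gene's probes, 1 member was called between old cells without competition and young cells (Ikzf1, adjusted p = 0.00698) and 1 between young cells and TN2 (Ikzf5). Array weights gave 1 in the former (Ikzf1, adjusted p = 0.0232) and 0 between young cells and TN3. Fits of only the groups compared gave 1 in the former (Ikzf1, adjusted p = 0.0496) and 0 for TN3 against young cells or old cells with competition. With 1 array left out, the called members ran from 0 to 1 in every comparison but that of the old groups, where 0 were called each time. Those calls were Ikzf1 between old cells without competition and young cells (without array 6 with competition or array 9 without), Ikzf3 between TN3 and TN2 (without array 6 with competition), and Ikzf5 elsewhere. For old cells without competition against TN3, Ikzf5 was called without young array 1, array 6 with competition, TN3 array 1 or array 8 without competition, and for young cells against TN2 without either TN3 array. The causes were not tested. Chip as a fixed term could be fitted only for TN3 against TN2, old cells without competition against TN3, and old cells with competition against young cells, and the chip term was left out of the fit of TN2 and TN3 alone. No paired analysis was possible because the labels give no replicate numbers that could serve as pairs. Averaged over the differences within chips 3 and 5, Ikzf3 in TN3 against TN2 was 2.27. Each of these chips held 1 TN2 and 1 TN3 array, so the fit within chips took its spread only from the young and old arrays. Dim signals such as Ikzf3 in TN2 give only an upper limit for the signal itself.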
